A study of Mus musculus with 6 samples.

Results

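The hypoxia response and glycolysis were followed through a list of 38 genes from the 25978 genes of one expression table. They were chosen by name, with earlier results of these data known. The list holds 7 regulators of the hypoxia-inducible factor (HIF), 4 transporters of glucose and lactate, 17 glycolytic enzymes, 3 kinases that set glycolytic flux and 7 other known HIF targets. All 38 were in the table and all passed the filter on low values. RNA was measured by mRNA sequencing in cells sorted from primary pancreatic tumours of mice, 3 libraries of YFP+ EpCAM- cells and 3 libraries of YFP+ EpCAM+ cells. Every mouse was on C57BL/6, was 5 to 7 weeks old and carried Pdx1-Cre, which deletes the tumour suppressor in Trp53fl/fl and switches on the reporter Rosa26LSL-YFP. Both groups therefore share the Trp53 deletion and YFP, together with the rest of the tumour genotype. The groups differ by the surface protein EpCAM, an epithelial adhesion molecule. Because Pdx1-Cre acts across the pancreatic lineage, YFP also marks normal pancreatic cells of these mice. The labels call the replicates biological, from primary tumours, and do not say whether equal replicate numbers share a tumour.

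HIF is a dimer of an oxygen-sensitive alpha subunit and the stable partner ARNT. In oxygen, prolyl hydroxylases mark the alpha subunit, and the VHL ubiquitin ligase then removes it, so HIF activity is largely set at the level of protein, which RNA does not show. When oxygen is scarce, HIF raises glucose uptake, glycolysis, lactate export and mitophagy, and pancreatic tumours are known as a poorly perfused, hypoxic tissue.

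Most of the listed genes were higher in EpCAM- cells. By limma, 22 of 38 rose and 4 fell in EpCAM- against EpCAM+ cells at a Benjamini-Hochberg adjusted p under 0.05, and 12 did not pass. Across all 15783 tested genes 43.4% changed, 20.3% upward and 23.1% downward. The upward share of the list, 57.9%, lies above this background and the downward share below it. Because the list was chosen with earlier results of these data known, this comparison is descriptive and is no test of the list. The median change of the 38 genes was 0.69 on the log2 scale, against 0.0043 over all tested genes. EpCAM- and EpCAM+ libraries did not overlap for 26 of the 38 genes, against a background of 56.3%. Of the 17 glycolytic enzymes 10 rose and 2 fell, with a median change of 0.58. Of the 7 HIF regulators 4 rose and 2 fell, with a median of 0.71, and of the 7 other HIF targets 4 rose and none fell, with a median of 0.53 (limma; 0 falls also at an unadjusted p under 0.05). The 4 transporters had the highest median, 1.43, and 3 of them rose. The RNA levels below are the deposited log2 values, in the order replicate 1, 2 and 3, and every change is EpCAM- minus EpCAM+ on the log2 scale with its standard error.

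The 17 glycolytic enzymes together made up 0.997%, 0.927% and 1.02% of the summed back-transformed level in EpCAM- cells, against 0.587%, 0.712% and 0.514% in EpCAM+ cells. The groups did not overlap. The 7 other HIF targets made up 0.119%, 0.207% and 0.194% in EpCAM- libraries and 0.105%, 0.123% and 0.0867% in EpCAM+ libraries. Here EpCAM- replicate 1 lay below EpCAM+ replicate 2, and the groups overlapped. The transporters came to 0.0711%, 0.124% and 0.125% in EpCAM- libraries and 0.0459%, 0.0732% and 0.05% in EpCAM+ libraries, with the same pair of libraries overlapping.

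**Figure D1:**
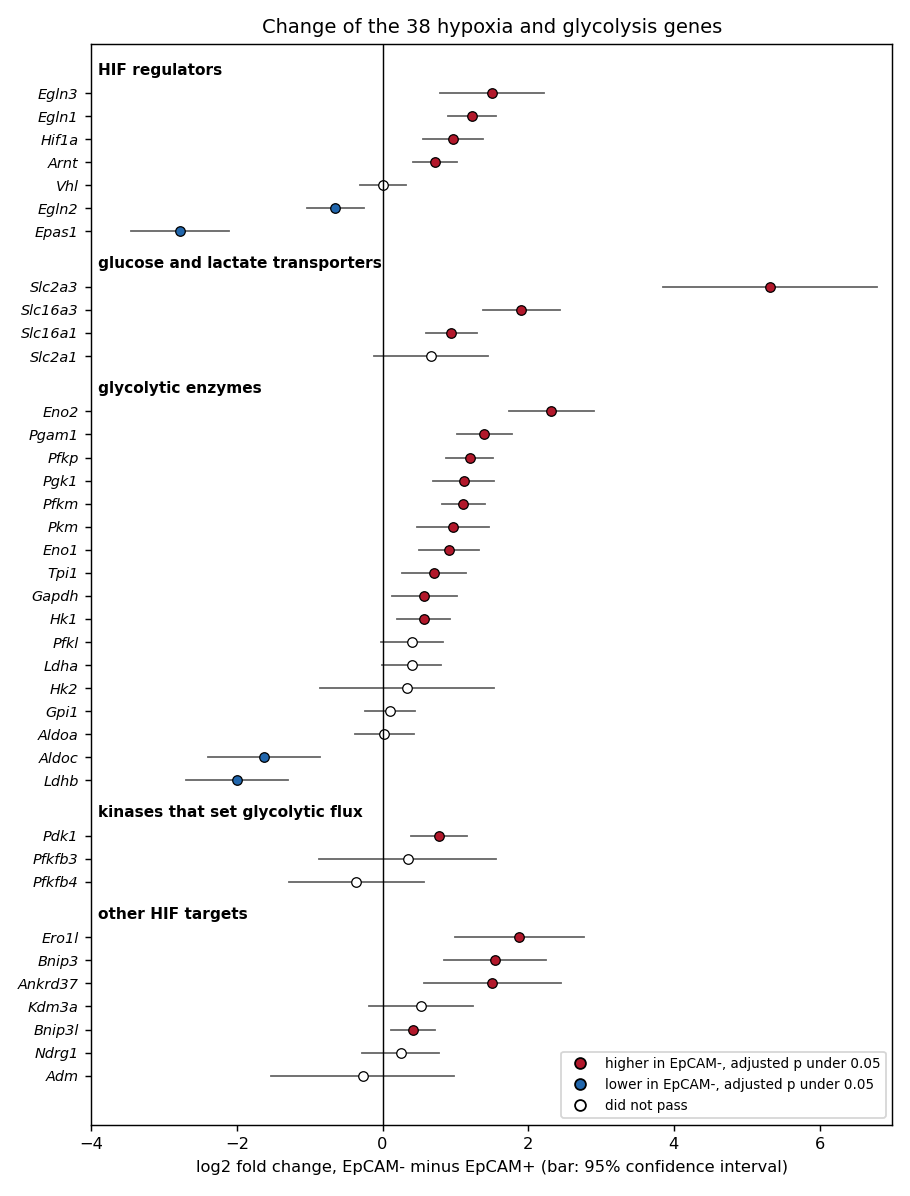
Change of each of the 38 genes between EpCAM- and EpCAM+ cells (x axis, log2 difference; points with 95% confidence intervals from limma, 3 libraries a group), ordered by role. Slc2a3 lies farthest right at 5.32 and Epas1 farthest left at -2.78, while most glycolytic enzymes sit between 0 and 1.40.

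The sorted cells matched their labels. All 7 epithelial markers, Epcam and Krt19 among them, were lower in EpCAM- cells, and 6 of 7 mesenchymal markers were higher. Fibroblast markers also moved: 9 of 10 were higher in EpCAM- cells, and their summed share was 0.484%, 0.648% and 0.151% in EpCAM- libraries against 0.0550%, 0.00502% and 0.00637% in EpCAM+ libraries. Several of these genes are also known from mesenchymal cells of epithelial origin. Acinar markers (7 of 7) and islet markers (6 of 6) were lower in EpCAM- cells, where acinar markers summed to 0.00171% to 0.00206%, against 0.176% to 0.368% in EpCAM+ libraries. Leukocyte markers were lower in EpCAM- cells for 9 of 10 tested, at 0.00250% to 0.00312% against 0.0149% to 0.0336% in EpCAM+ libraries, and Cd3e was near 0 everywhere. Cd14 was the highest of these markers in every library and weighs most in the sums. Its log2 levels were 8.33, 7.94 and 8.22 in EpCAM- libraries and 12.05, 11.59 and 11.60 in EpCAM+ libraries. Endothelial markers summed to at most 0.000804% in any EpCAM- library and 0.000575% in any EpCAM+ library, 1 of 5 tested was higher, and Emcn was near 0. None of the 5 erythroid markers in the table passed the filter on low values. The part of the marker lists that moved with the groups in the results below was not tested. In bulk RNA, fewer cells of a type and less RNA per cell cannot be told apart.

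The genes of the oxygen-sensitive alpha subunits split in opposite directions. Hif1a (ENSMUSG00000021109, chr12:73901375-73947530, GRCm38), which encodes the widely expressed oxygen-sensitive subunit, had log2 levels of 13.02, 13.40 and 13.58 in EpCAM- cells and 12.18, 12.37 and 12.54 in EpCAM+ cells. All 3 EpCAM- libraries lay above all EpCAM+ libraries, and the gene rose by 0.97 ± 0.17, 1.96-fold (limma, adjusted p = 0.00397). Epas1 (ENSMUSG00000024140, chr17:86753700-86833410) encodes the second alpha subunit, known from endothelium and from kidney cancer. It had 8.10, 8.30 and 7.16 in EpCAM- cells and 10.54, 10.72 and 10.64 in EpCAM+ cells. Every EpCAM- library was far below every EpCAM+ library, and Epas1 fell by 2.78 ± 0.29, 6.88-fold (adjusted p = 0.000314), the largest fall among the 38 genes. Within each library, Hif1a exceeded Epas1 by 4.92, 5.10 and 6.42 in EpCAM- cells and by 1.64, 1.65 and 1.90 in EpCAM+ cells. Per kilobase of transcript, Epas1 supplied 2.06 ± 0.94% of the RNA of the 2 alpha subunits in EpCAM- cells and 20.6 ± 1.65% in EpCAM+ cells (SD, n = 3 each). Arnt, the shared partner, had 11.47, 11.84 and 11.60 in EpCAM- cells and 10.84, 11.06 and 10.85 in EpCAM+ cells. It rose by 0.71 ± 0.13 (adjusted p = 0.00398), with no overlap.

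Of the 3 prolyl hydroxylases that mark HIF for removal, 2 rose and 1 fell. Egln3, itself a HIF target, had 11.14, 12.04 and 12.31 in EpCAM- cells and 10.05, 10.44 and 10.48 in EpCAM+ cells. Egln1, the main oxygen sensor and also HIF-induced, had 11.61, 11.64 and 11.74 in EpCAM- cells and 10.53, 10.62 and 10.16 in EpCAM+ cells. Both were higher in all 3 EpCAM- libraries, Egln3 by 1.5 ± 0.30 (limma, adjusted p = 0.00643) and Egln1 by 1.23 ± 0.14 (adjusted p = 0.000475). Egln2, the hydroxylase that hypoxia does not induce, had 9.93, 9.42 and 9.44 in EpCAM- cells and 10.39, 10.26 and 10.08 in EpCAM+ cells. The groups did not overlap, and it fell by 0.65 ± 0.17 (adjusted p = 0.0186). This call was lost without EpCAM- replicate 2 or 3 (adjusted p = 0.0546 and 0.0587) and without EpCAM+ replicate 1 or 2 (0.0660 and 0.0564), which leaves 1 fall among the regulators. Per kilobase, Egln2 made up 14.4 ± 5.9% of the 3 hydroxylases in EpCAM- cells and 39.8 ± 3.7% in EpCAM+ cells (SD, n = 3 each). Egln3 made up 51.7 ± 11.3% in EpCAM- cells and 33.5 ± 5.8% in EpCAM+ cells. The Egln3 shares overlapped, at 38.8% in EpCAM- replicate 1 and 39.2% in EpCAM+ replicate 3. Vhl, the substrate receptor of the ubiquitin ligase, had 8.63, 8.75 and 8.97 in EpCAM- cells and 8.82, 8.84 and 8.69 in EpCAM+ cells. Its libraries overlapped and the difference was 0.0030 (95% interval -0.31 to 0.32, adjusted p = 0.988).

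The largest change of all 38 genes was in a glucose transporter. Slc2a3 (ENSMUSG00000003153, chr6:122727809-122801640), the high-affinity transporter GLUT3 known from neurons, had log2 levels of 8.78, 11.36 and 9.60 in EpCAM- cells and 5.08, 4.41 and 4.29 in EpCAM+ cells. The lowest EpCAM- library stood above the highest EpCAM+ library by a wide gap, although EpCAM- libraries also differed among themselves by 2.57. Slc2a3 rose by 5.32 ± 0.62, 39.9-fold on the deposited scale (limma, adjusted p = 0.000556). The EpCAM+ levels are low, and whether the authors' transform compresses or stretches differences at such levels was not tested. Slc2a1, the ubiquitous transporter GLUT1, had 13.55, 14.47 and 14.50 in EpCAM- cells and 13.16, 14.04 and 13.34 in EpCAM+ cells. EpCAM- replicate 1 lay below EpCAM+ replicate 2, and the difference of 0.66 did not pass (95% interval -0.12 to 1.44, adjusted p = 0.149). Without EpCAM- replicate 1 it was 0.97 (adjusted p = 0.0301). Per kilobase, Slc2a3 supplied 2.94%, 8.66% and 2.69% of the RNA of both transporters in EpCAM- cells and 0.30%, 0.10% and 0.15% in EpCAM+ cells. Slc2a1 was the more abundant of the pair in every library. The fibroblast markers given above moved in the same direction as Slc2a3, and their part in its change was not tested.

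Both lactate carriers rose. Slc16a3 (chr11:120948480-120960868), the hypoxia-induced exporter MCT4, had 11.32, 12.09 and 11.81 in EpCAM- cells and 9.92, 10.05 and 9.54 in EpCAM+ cells. Slc16a1, the carrier MCT1, had 11.99, 11.73 and 12.22 in EpCAM- cells and 10.91, 11.16 and 11.03 in EpCAM+ cells. No EpCAM- library overlapped an EpCAM+ library for either gene. Slc16a3 rose by 1.91 ± 0.22 (limma, adjusted p = 0.000561) and Slc16a1 by 0.95 ± 0.15 (adjusted p = 0.00209). Per kilobase, Slc16a3 made up 46.4 ± 9.2% of the pair in EpCAM- cells and 30.9 ± 3.8% in EpCAM+ cells.

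**Figure D2:**
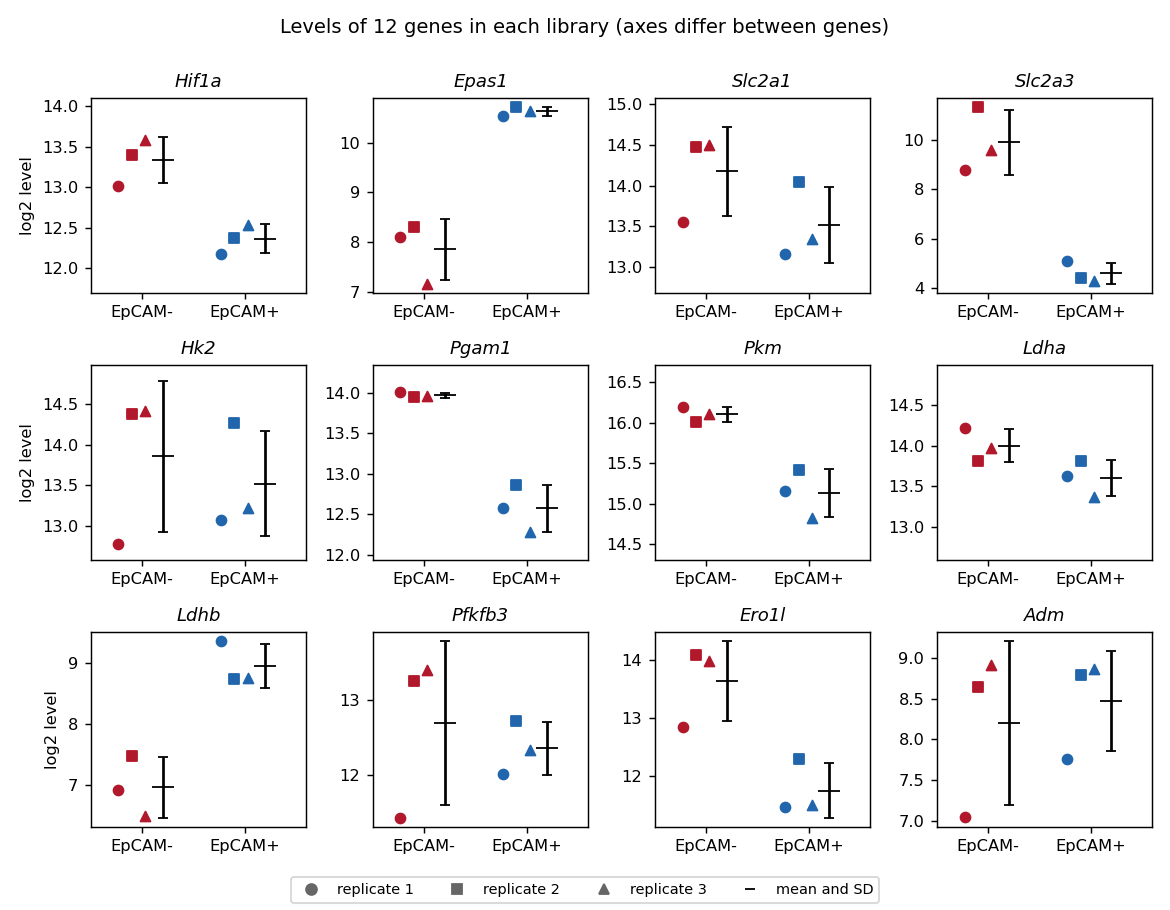
Deposited log2 level (y axis, scaled for each gene) of 12 of the genes in each EpCAM- and EpCAM+ library; symbols mark the replicate and the bar gives mean and SD (n = 3). Slc2a3 lies at 8.78 to 11.36 in EpCAM- and 4.29 to 5.08 in EpCAM+ cells, while Hk2, Pfkfb3 and Adm overlap and are lowest in EpCAM- replicate 1.

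The first steps of glycolysis trap and prime glucose. Of their genes, Hk1 passed the threshold, while Hk2 and Gpi1 did not. Hk2, the hypoxia-induced hexokinase, had 12.78, 14.38 and 14.41 in EpCAM- cells and 13.07, 14.27 and 13.22 in EpCAM+ cells. EpCAM- replicate 1 was the lowest of all 6 libraries, and the difference of 0.34 did not pass (95% interval -0.86 to 1.54, limma, adjusted p = 0.628). Hk1, the constitutive hexokinase, had 13.08, 12.89 and 12.79 in EpCAM- cells and 12.36, 12.61 and 12.10 in EpCAM+ cells. It did not overlap and rose by 0.56 ± 0.16 (adjusted p = 0.0243). The Hk1 call was lost without EpCAM- replicate 1 or 2 (adjusted p = 0.0534 and 0.0529) and without EpCAM+ replicate 1 or 3 (0.0675 and 0.0791). Within each library the level of Hk2 minus that of Hk1 was -0.31, 1.49 and 1.62 in EpCAM- cells. In EpCAM+ cells it was 0.71, 1.66 and 1.12, and the groups overlapped. The change in this balance was -0.23, with an SD of 1.08 in EpCAM- and 0.48 in EpCAM+ libraries, which leaves a shift undecided. Gpi1, glucose phosphate isomerase, differed by 0.10 (95% interval -0.25 to 0.45, adjusted p = 0.613), with 13.28, 13.03 and 13.41 in EpCAM- cells and 13.02, 13.33 and 13.07 in EpCAM+ cells.

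Phosphofructokinase makes the committed step, and its 3 subunit genes moved unequally. Pfkp, the platelet-type subunit, had 11.12, 11.55 and 11.20 in EpCAM- cells and 10.07, 10.20 and 10.01 in EpCAM+ cells. Pfkm, the muscle-type subunit, had 10.45, 10.50 and 10.46 in EpCAM- cells and 9.45, 9.49 and 9.13 in EpCAM+ cells. Both were above all EpCAM+ libraries in all 3 EpCAM- libraries, Pfkp by 1.2 ± 0.14 (limma, adjusted p = 0.0005) and Pfkm by 1.11 ± 0.12 (adjusted p = 0.000446). Pfkl, the liver-type subunit, had 12.05, 12.47 and 11.98 in EpCAM- cells and 11.77, 12.01 and 11.52 in EpCAM+ cells. It overlapped in 1 library and its difference of 0.40 did not pass (95% interval -0.02 to 0.82, adjusted p = 0.113). Per kilobase, Pfkl made up 52.9% of the 3 genes in EpCAM- cells and 65.5% in EpCAM+ cells. Pfkp shares 748 exonic bases with Pitrm1 on the opposite strand, and the sources used here do not say whether reads were counted by strand. The back-transformed level of Pitrm1, not divided by length, was 144% of that of Pfkp in EpCAM- cells and 203% in EpCAM+ cells, and its part in the level, share and rise of Pfkp was not tested. Aldoa, the main aldolase, had 14.32, 14.05 and 14.07 in EpCAM- cells and 14.08, 14.40 and 13.89 in EpCAM+ cells, a difference of 0.022 (95% interval -0.38 to 0.43, adjusted p = 0.928).

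All 4 of the main genes for the later steps, from phosphoglycerate kinase to pyruvate kinase, rose. Pgam1 (chr19:41911923-41918660), phosphoglycerate mutase, had 14.00, 13.95 and 13.96 in EpCAM- cells and 12.57, 12.87 and 12.28 in EpCAM+ cells. The EpCAM- libraries were almost equal and well above all EpCAM+ libraries, and Pgam1 rose by 1.40 ± 0.16, 2.63-fold (limma, adjusted p = 0.000523). Pgk1, phosphoglycerate kinase, had 14.01, 13.91 and 14.17 in EpCAM- cells and 12.87, 13.24 and 12.64 in EpCAM+ cells, without overlap. It rose by 1.11 ± 0.18 (adjusted p = 0.00236). Its 2 near-identical pseudogenes in the table held levels equal to 29.0% of the gene's in EpCAM- cells and 28.6% in EpCAM+ cells, so reads may have been divided between them. Eno1, the ubiquitous enolase, had 15.19, 14.80 and 14.78 in EpCAM- cells and 14.08, 14.13 and 13.83 in EpCAM+ cells. Pkm (chr9:59656368-59679375), the pyruvate kinase gene of most tissues, had 16.20, 16.01 and 16.11 in EpCAM- cells and 15.16, 15.42 and 14.83 in EpCAM+ cells. Neither gene overlapped, Eno1 rose by 0.91 ± 0.17 (adjusted p = 0.00519) and Pkm by 0.97 ± 0.21 (adjusted p = 0.00922). The gene-level value does not separate the Pkm splice forms. Per kilobase of transcript, Pkm ranked first of the 38 genes in EpCAM- cells and Gapdh ranked first in EpCAM+ cells.

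Smaller rises were seen for the steps between aldolase and Pgk1. Tpi1, triose phosphate isomerase, had 13.82, 13.87 and 14.02 in EpCAM- cells and 13.02, 13.58 and 12.97 in EpCAM+ cells, a rise of 0.71 ± 0.19 (limma, adjusted p = 0.0195). Gapdh, the dehydrogenase often used as a loading control, had 15.02, 14.78 and 15.05 in EpCAM- cells and 14.25, 14.69 and 14.18 in EpCAM+ cells, a rise of 0.58 ± 0.19 (adjusted p = 0.0423). For both, EpCAM+ replicate 2 came closest to the EpCAM- libraries without reaching them. Tpi1 lost its call without EpCAM- replicate 3 (adjusted p = 0.0614) and without EpCAM+ replicate 1 or 3 (0.0714 and 0.0750). Gapdh lost it without EpCAM- replicate 1 or 3 (0.0748 and 0.118) and without EpCAM+ replicate 1 or 3 (0.137 and 0.143). Gapdh also has 75 near-identical genes in the annotation, 72 of them pseudogenes. Those in the table, 71 genes, together held levels equal to 7.52% of the gene's in EpCAM- cells and 8.29% in EpCAM+ cells. Reads may have been divided between Gapdh and these copies.

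At the last step the lactate dehydrogenase genes shifted against each other. Ldhb (chr6:142490249-142507957), the heart-type subunit whose enzyme favours pyruvate, had 6.92, 7.48 and 6.49 in EpCAM- cells and 9.37, 8.74 and 8.76 in EpCAM+ cells. All EpCAM- libraries lay below all EpCAM+ libraries, and Ldhb fell by 1.99 ± 0.30, 3.98-fold (limma, adjusted p = 0.00175). Ldha (chr7:46841475-46855627), the hypoxia-induced subunit whose enzyme favours lactate, had 14.22, 13.81 and 13.98 in EpCAM- cells and 13.62, 13.81 and 13.37 in EpCAM+ cells. EpCAM- replicate 2 and EpCAM+ replicate 2 met, and the difference of 0.40 did not pass (adjusted p = 0.0976, 95% interval -0.0015 to 0.80). Within each library Ldha exceeded Ldhb by 7.30, 6.33 and 7.49 in EpCAM- cells and by 4.25, 5.07 and 4.62 in EpCAM+ cells. Per kilobase, Ldhb made up 0.85%, 1.66% and 0.75% of the pair in EpCAM- cells and 6.64%, 3.87% and 5.23% in EpCAM+ cells. Acinar and islet markers fell in EpCAM- cells as Ldhb and Epas1 did, and their part in these falls was not tested.

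The minor isoenzymes of aldolase and enolase moved in opposite directions. Aldoc, the brain-type aldolase and a known hypoxia-induced gene, had 7.26, 8.58 and 7.68 in EpCAM- cells and 9.34, 9.38 and 9.67 in EpCAM+ cells. It fell by 1.62 ± 0.32 (limma, adjusted p = 0.00652) with no overlap. Eno2, the neuronal enolase and also hypoxia-induced, had 7.33, 7.99 and 7.96 in EpCAM- cells and 5.69, 5.40 and 5.24 in EpCAM+ cells. It rose by 2.32 ± 0.25, 4.98-fold (adjusted p = 0.000374), the largest rise among the 17 enzymes. Both remained minor per kilobase: Aldoc was 0.75% of the aldolase pair in EpCAM- cells and 2.15% in EpCAM+ cells, and Eno2 was 0.53% of the enolase pair in EpCAM- cells and 0.19% in EpCAM+ cells.

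**Figure D3:**
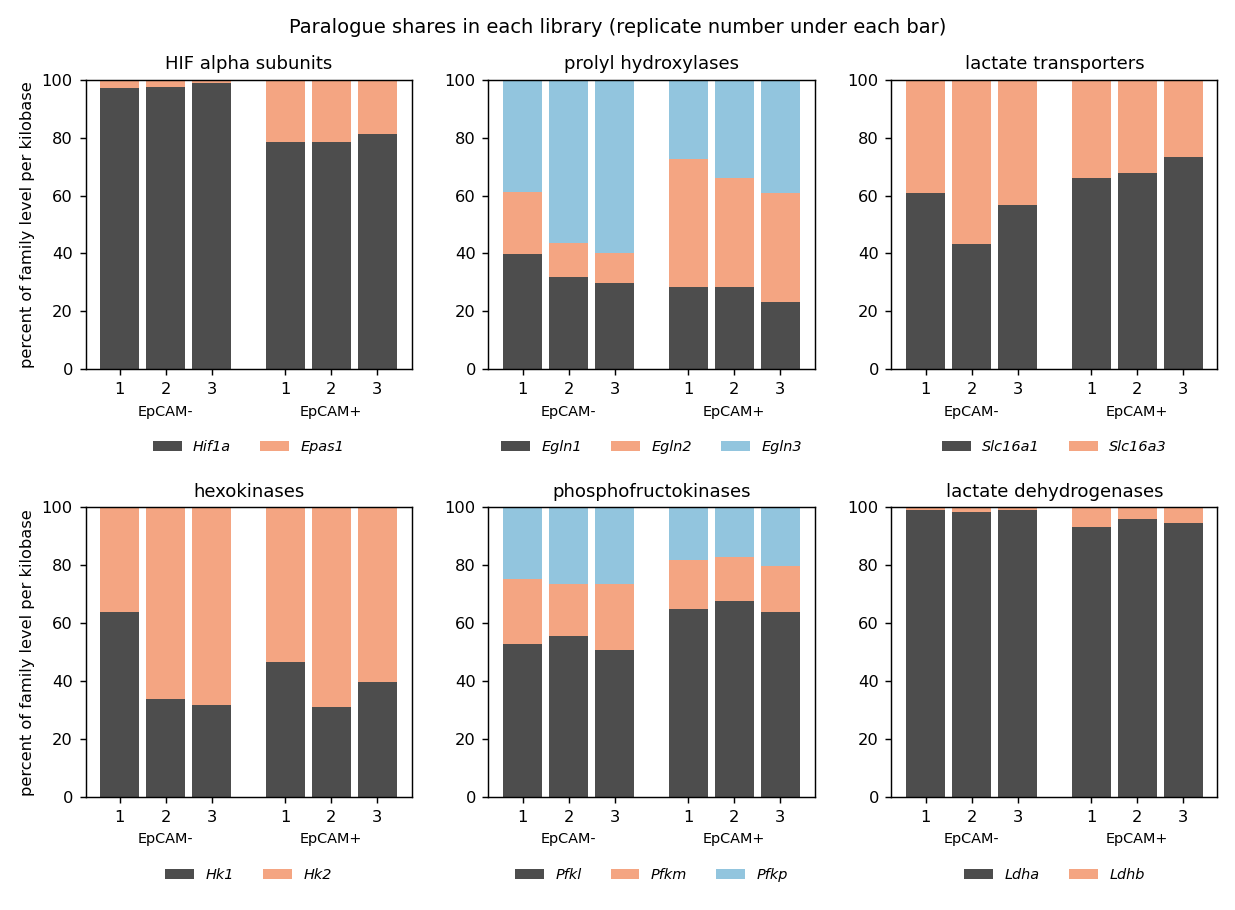
Share of each isoenzyme or subunit in its family's RNA per kilobase of transcript (y axis, percent) in each of the 3 EpCAM- and 3 EpCAM+ libraries (stacked bars). Epas1, Egln2 and Ldhb take a smaller share in EpCAM- than in EpCAM+ libraries, while the hexokinase shares overlap between the groups.

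The promoters of 6 genes are shown because these genes carry the main contrasts of the list: the largest rise among the enzymes (Eno2), a transporter and an oxidase that rose (Slc16a3, Ero1l), the enzymes that fell (Aldoc, Ldhb) and the lactate dehydrogenase gene that did not pass (Ldha). Each runs 5′ to 3′ from 250 bases before to 50 bases after a RefSeq start on GRCm38.p6, on the gene's strand. Capitals mark the core of the HIF motif, ACGTG or GCGTG on either strand (CACGT or CACGC on the printed strand when reversed). An E-box, CACGTG, contains ACGTG and its reverse complement, which overlap and count as 2 cores. Eno2 lies at chr6:124769624-124769923 (-), Slc16a3 at chr11:120948817-120949116 (+), Ero1l (Ero1a in RefSeq) at chr14:45318523-45318822 (-), Aldoc at chr11:78322823-78323122 (+), Ldhb at chr6:142507908-142508207 (-) and Ldha at chr7:46845554-46845853 (+).
Eno2: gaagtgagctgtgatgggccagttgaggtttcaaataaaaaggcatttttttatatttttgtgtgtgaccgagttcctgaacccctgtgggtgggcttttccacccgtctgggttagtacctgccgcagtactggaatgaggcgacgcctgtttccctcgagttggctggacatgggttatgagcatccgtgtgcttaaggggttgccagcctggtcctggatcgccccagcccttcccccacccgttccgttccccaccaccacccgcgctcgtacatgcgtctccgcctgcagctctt
Slc16a3: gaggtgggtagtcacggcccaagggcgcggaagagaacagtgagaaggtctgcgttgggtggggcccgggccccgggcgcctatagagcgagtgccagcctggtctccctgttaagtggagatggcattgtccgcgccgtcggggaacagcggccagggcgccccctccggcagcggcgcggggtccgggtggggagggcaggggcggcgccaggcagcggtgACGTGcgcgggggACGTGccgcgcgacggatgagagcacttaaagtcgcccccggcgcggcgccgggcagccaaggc
Ero1l: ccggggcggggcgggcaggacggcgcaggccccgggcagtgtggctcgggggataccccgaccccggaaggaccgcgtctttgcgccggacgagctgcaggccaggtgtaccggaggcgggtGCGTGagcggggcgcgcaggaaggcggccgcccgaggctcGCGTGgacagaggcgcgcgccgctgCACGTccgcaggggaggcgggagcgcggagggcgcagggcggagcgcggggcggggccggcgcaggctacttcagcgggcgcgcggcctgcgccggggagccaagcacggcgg
Aldoc: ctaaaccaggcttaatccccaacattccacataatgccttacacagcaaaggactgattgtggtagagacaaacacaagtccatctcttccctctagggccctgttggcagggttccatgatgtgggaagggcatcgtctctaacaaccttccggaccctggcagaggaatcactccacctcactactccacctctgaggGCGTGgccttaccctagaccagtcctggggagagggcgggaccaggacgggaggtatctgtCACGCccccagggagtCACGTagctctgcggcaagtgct
Ldhb: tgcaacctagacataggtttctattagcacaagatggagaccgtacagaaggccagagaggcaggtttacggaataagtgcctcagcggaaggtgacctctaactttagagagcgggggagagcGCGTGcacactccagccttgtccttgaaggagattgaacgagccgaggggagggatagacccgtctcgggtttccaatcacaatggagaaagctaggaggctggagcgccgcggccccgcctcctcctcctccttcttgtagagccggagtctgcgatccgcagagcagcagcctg
Ldha: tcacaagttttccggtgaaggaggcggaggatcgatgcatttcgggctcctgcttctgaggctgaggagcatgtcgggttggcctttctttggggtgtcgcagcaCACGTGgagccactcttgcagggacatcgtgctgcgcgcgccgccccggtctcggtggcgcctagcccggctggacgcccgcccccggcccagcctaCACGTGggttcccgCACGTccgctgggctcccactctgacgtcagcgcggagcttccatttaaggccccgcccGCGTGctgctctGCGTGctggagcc

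Among these 6 sequences Ldha has 7 cores, Ero1l and Aldoc 3 each, Slc16a3 2, Ldhb 1 and Eno2 none. These 6 genes were picked by their changes, and a link between the number of cores and the change in RNA was not tested. Ldha and Aldoc each have a second RefSeq promoter that is not printed, with 2 cores for Ldha and 1 for Aldoc. RefSeq promoters were matched for 34 of the 38 genes, and Epas1, Slc2a3, Bnip3l and Ndrg1 were not matched. At least 1 promoter held a core in 30 of the 34 genes, 88.2%, against 65.9% of 11232 matched tested genes and 46.7% of all 27025 genes with a promoter, counted in the same way. Of all 32851 single promoters, 43.8% held a core. A core was present in 18 of 20 genes that rose, 3 of 3 that fell and 9 of 11 that did not pass. Vhl, Gpi1, Tpi1 and Eno2 had none. The E-box was present in 7 of 34 genes, 20.6%, against 11.4% of the tested genes. The list was chosen by name and holds known HIF targets, so these comparisons are descriptive and are no test of the list. Counting any promoter favours genes with several, such as Pfkm with 4, and this effect was not tested. A match of letters does not show a bound site, and an absent match says only that these letters are not in the window.

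Of the 3 kinases that set glycolytic flux, 1 rose. Pdk1, the kinase that shuts pyruvate out of the mitochondrial dehydrogenase, had 11.06, 11.08 and 11.45 in EpCAM- cells and 10.44, 10.65 and 10.19 in EpCAM+ cells. The groups did not overlap and it rose by 0.77 ± 0.16 (limma, adjusted p = 0.00794). Pfkfb3, which makes the sugar bisphosphate that activates phosphofructokinase, had 11.42, 13.27 and 13.40 in EpCAM- cells and 12.01, 12.72 and 12.33 in EpCAM+ cells. EpCAM- replicate 1 was below all EpCAM+ libraries and the other EpCAM- libraries were above them all, so the difference of 0.34 did not pass (95% interval -0.88 to 1.56, adjusted p = 0.626). Without EpCAM- replicate 1 it was 0.98 (adjusted p = 0.0128), and without EpCAM- replicate 3 it was -0.010. Pfkfb4, a second enzyme of that kind, had 8.16, 9.02 and 9.34 in EpCAM- cells and 8.85, 9.90 and 8.85 in EpCAM+ cells, with overlap and a difference of -0.36 (95% interval -1.28 to 0.56, adjusted p = 0.496).

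The other HIF targets that rose were Ero1l, Bnip3, Bnip3l and Ankrd37. Ero1l, the oxidase that drives disulfide formation in the endoplasmic reticulum, had 12.84, 14.08 and 13.98 in EpCAM- cells and 11.48, 12.30 and 11.50 in EpCAM+ cells. Bnip3, a mitophagy receptor, had 10.92, 11.26 and 11.40 in EpCAM- cells and 9.83, 10.15 and 8.98 in EpCAM+ cells. Both were higher in all 3 EpCAM- libraries, Ero1l by 1.88 ± 0.37, 3.68-fold (limma, adjusted p = 0.00638), and Bnip3 by 1.54 ± 0.30, 2.91-fold (adjusted p = 0.00545). Its paralogue Bnip3l, also a mitophagy receptor, had 12.13, 12.34 and 12.19 in EpCAM- cells and 11.89, 11.92 and 11.58 in EpCAM+ cells, a rise of 0.42 ± 0.13 (adjusted p = 0.0339). Ankrd37, an ankyrin repeat gene known as a direct HIF target, had 7.08, 8.29 and 8.68 in EpCAM- cells and 6.37, 6.65 and 6.51 in EpCAM+ cells, a rise of 1.51 ± 0.40 (adjusted p = 0.0201). Neither overlapped, but both calls were less firm. Bnip3l lost its call without EpCAM- replicate 2 or 3 (adjusted p = 0.0924 and 0.0737), without EpCAM+ replicate 1 or 3 (0.0599 and 0.105), without a filter on low values (0.0511) and without a variance trend (0.0572). Ankrd37 lost it without EpCAM- replicate 2 or 3 (0.0617 and 0.0520) and without EpCAM+ replicate 1 or 3 (0.0608 and 0.0635). The count of 4 rises among these targets was then 2 without EpCAM- replicate 2 or 3 and without EpCAM+ replicate 1 or 3.

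Adm, Ndrg1 and Kdm3a, also widely used as hypoxia reporters, did not pass. Adm, which encodes the vasodilator adrenomedullin, had 7.04, 8.64 and 8.91 in EpCAM- cells and 7.76, 8.80 and 8.86 in EpCAM+ cells, a difference of -0.27 (95% interval -1.53 to 0.98, limma, adjusted p = 0.711). Ndrg1, a stress-response gene, had 13.84, 14.54 and 14.34 in EpCAM- cells and 14.05, 14.21 and 13.71 in EpCAM+ cells, a difference of 0.25 (95% interval -0.28 to 0.78, adjusted p = 0.402). Kdm3a, a histone demethylase, had 11.59, 12.51 and 12.27 in EpCAM- cells and 11.40, 12.11 and 11.26 in EpCAM+ cells, a difference of 0.53 (95% interval -0.18 to 1.24, adjusted p = 0.196). In all 3 the libraries of the groups overlapped, and the intervals leave room for changes of either sign.

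Within the EpCAM- group, 1 library stood low for the hypoxia targets. EpCAM- replicate 1 was the lowest EpCAM- library for 24 of the 38 genes, 63.2%, against 34.1% of all tested genes. It was lowest for 7 of 7 other HIF targets and 3 of 3 kinases, and for 6 of 17 glycolytic enzymes. Its mean deviation from the EpCAM- mean was -0.60 over the other HIF targets and -0.09 over the enzymes. Among EpCAM+ libraries, replicate 2 was highest for 30 of the 38 genes, 78.9%, against 32.2% of all tested genes, and for 14 of 17 enzymes. The widest ranges among EpCAM- libraries were 2.57 for Slc2a3, 1.98 for Pfkfb3, 1.87 for Adm, 1.63 for Hk2 and 1.6 for Ankrd37, against a median range of 0.44 over all tested genes. The narrowest were 0.05 for Pfkm and 0.06 for Pgam1. The same library stood apart over all genes: the second principal component, 7.28% of the variance, placed EpCAM- replicate 1 at 45.4 and EpCAM+ replicate 1 at 27.2, with the others between -24.6 and -12.3. Its part in the results was not tested beyond the values without it given above.

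**Figure D4:**
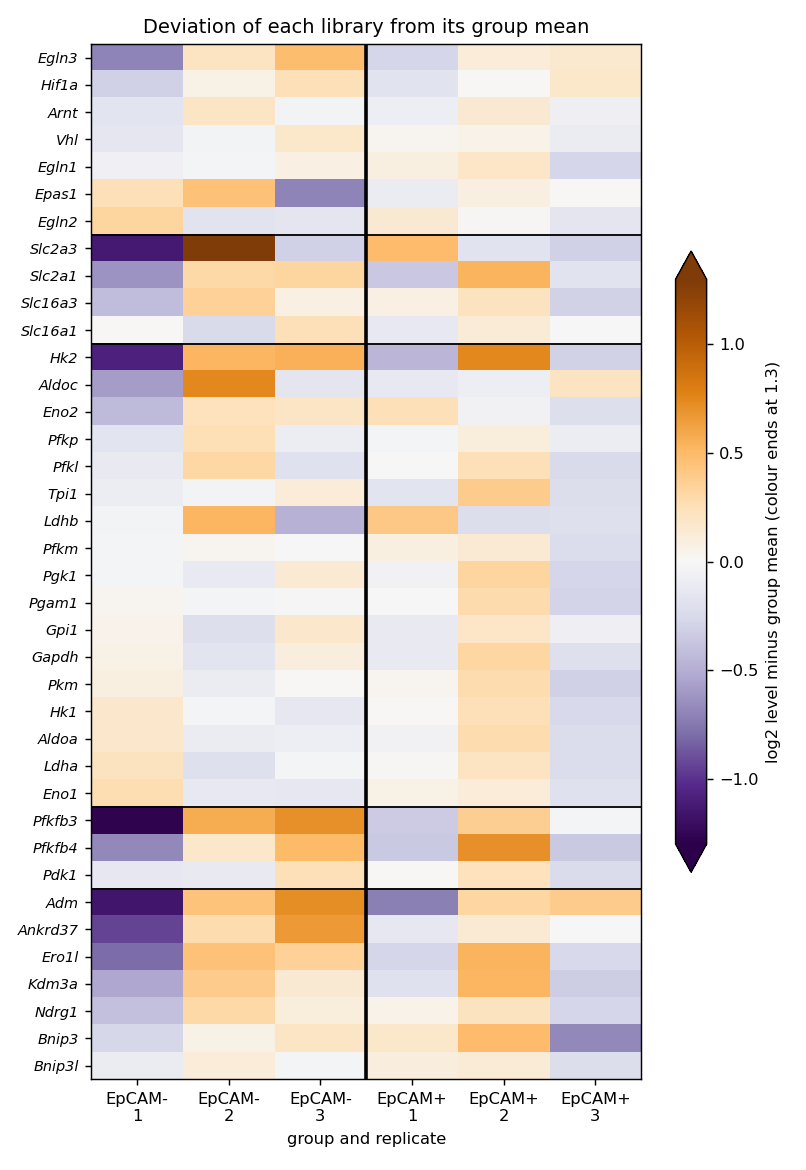
Deviation of each library (columns, 3 EpCAM- and 3 EpCAM+) from its group mean for each of the 38 genes (rows, by role), as colour on the log2 scale. The column of EpCAM- replicate 1 is below its group mean for 7 of 7 other HIF targets, while its glycolytic enzymes lie on both sides.

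Further genes of the pathway were read from 8 lists, 130 tested genes in all, of which 27 rose and 37 fell. The risen share, 20.8%, is near the 20.3% of all tested genes, and 49.2% changed in either direction, against 43.4% of all tested genes. Among 40 further hypoxia-induced genes 15 rose, 37.5%, and 6 fell, with a median change of 0.34, and 52.5% changed in either direction. Lox, which crosslinks collagen, had 11.54, 11.42 and 11.44 in EpCAM- cells and 8.32, 6.79 and 7.49 in EpCAM+ cells, a rise of 3.93 ± 0.35 (limma, adjusted p = 0.000155). Plod2, a collagen lysyl hydroxylase, had 12.17, 12.72 and 12.26 in EpCAM- cells and 9.31, 8.90 and 8.71 in EpCAM+ cells, a rise of 3.41 ± 0.20 (adjusted p = 2.75e-05). For neither gene did the groups overlap. The fibroblast markers above moved with them, and their part was not tested. The 6 genes that fell, named after their values were seen, were Edn1 (-2.88), Stc2 (-2.80), Car9 (-2.70), Car12 (-1.99), Ddit4 (-1.18) and Ak3 (-1.18). The 15 that rose, likewise named after their values were seen, included Ak4 (3.04), P4ha1 (2.20), Higd1a (1.45) and Fam162a (1.45). Car9, a carbonic anhydrase often used to mark hypoxic tumour cells, had 9.09, 9.03 and 9.60 in EpCAM- cells and 11.89, 11.78 and 12.16 in EpCAM+ cells, opposite in direction to most of the list (adjusted p = 4.51e-05). Vegfa, the vessel growth factor, had 13.24, 14.37 and 14.46 in EpCAM- cells and 13.99, 14.57 and 13.99 in EpCAM+ cells, overlapped and did not pass (adjusted p = 0.739).

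Of 13 tested other glycolytic isoenzymes 2 rose and 6 fell, with a median of -0.79, and 61.5% changed in either direction, against 43.4% of all tested genes. The genes that rose were Eno3, the muscle enolase, by 2.99 ± 0.47 (limma, adjusted p = 0.00219) and Adpgk, an ADP-dependent glucokinase, by 0.66 ± 0.10 (adjusted p = 0.00161). Eno3 had 10.49, 9.05 and 10.60 in EpCAM- cells and 6.96, 7.67 and 6.55 in EpCAM+ cells, with no overlap. Hkdc1, a hexokinase-like gene, had 4.66, 4.72 and 4.18 in EpCAM- cells and 9.999, 9.976 and 10.52 in EpCAM+ cells. Pklr, the liver and erythrocyte pyruvate kinase, had 3.44, 3.19 and 3.50 in EpCAM- cells and 8.35, 8.22 and 8.66 in EpCAM+ cells. These were the largest falls in the list, a change of -5.64 ± 0.23 for Hkdc1 (limma, adjusted p = 7.28e-06) and of -5.03 ± 0.21 for Pklr (adjusted p = 7.21e-06). Of 17 tested other transporters 4 rose and 7 fell, with a median of -0.53. The risen share, 23.5%, is near the 20.3% of all tested genes, and 64.7% changed in either direction, against 43.4%. Emb, an accessory protein of the lactate carriers, had 11.21, 11.37 and 11.95 in EpCAM- cells and 8.25, 6.99 and 7.77 in EpCAM+ cells. It rose by 3.84 ± 0.34 (limma, adjusted p = 0.000152). Bsg, listed with these carriers and more abundant, went the other way. It had 13.71, 13.76 and 13.38 in EpCAM- cells and 14.46, 14.40 and 14.32 in EpCAM+ cells. The groups did not overlap, and Bsg changed by -0.78 ± 0.15 (limma, adjusted p = 0.00489). Slc2a2, the liver and islet glucose transporter, had 3.25, 2.94 and 3.41 in EpCAM- cells and 6.52, 6.30 and 7.18 in EpCAM+ cells, a change of -3.47 ± 0.29 (adjusted p = 0.000112). The sodium-coupled glucose transporter Slc5a1 changed by -2.86 ± 0.31 (adjusted p = 0.000386), at 2.35, 2.21 and 2.18 in EpCAM- cells and 4.88, 4.69 and 5.76 in EpCAM+ cells. Without EpCAM+ replicate 1, 2 of these transporters rose. Several of the genes that fell are low in EpCAM- cells, and the acinar and islet markers moved with them. Their part in these falls was not tested.

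Of 16 other HIF pathway regulators 3 rose and 3 fell, with a median of -0.018, and the 37.5% that changed is near the 43.4% of all tested genes. Cited4, a co-activator-binding protein, had 3.20, 3.58 and 3.12 in EpCAM- cells and 8.11, 9.04 and 8.99 in EpCAM+ cells, a change of -5.42 ± 0.30 (limma, adjusted p = 2.09e-05). Arnt2, the second ARNT gene, had 7.03, 6.78 and 6.37 in EpCAM- cells and 9.64, 8.92 and 9.03 in EpCAM+ cells, a change of -2.47 ± 0.26 (adjusted p = 0.000333). Os9, a lectin of the endoplasmic reticulum, had 11.66, 11.55 and 11.02 in EpCAM- cells and 12.36, 12.28 and 12.51 in EpCAM+ cells, a change of -0.97 ± 0.18 (adjusted p = 0.0045). In each the groups were apart. The genes that rose were Elob, Eloc and Cul2, which are parts of the VHL ligase, while its further part Rbx1 differed by 0.11 (95% interval -0.28 to 0.50, adjusted p = 0.617) and Vhl, given above, did not pass. Without EpCAM- replicate 1 the count of regulators that rose was 5.

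Further lists covered routes that branch from glycolysis, and the shares of their tested genes that changed were 46.2% for pyruvate entry, 33.3% for the pentose phosphate pathway, 50% for gluconeogenesis and 38.9% for the citric acid cycle, around the 43.4% of all tested genes. In the list for pyruvate entry and the pyruvate dehydrogenase complex 1 of 13 genes rose and 5 fell, with a median of -0.23. Pdk3, a kinase that inhibits the complex, had 9.54, 9.86 and 9.97 in EpCAM- cells and 8.29, 8.57 and 8.38 in EpCAM+ cells, a rise of 1.38 ± 0.15 (limma, adjusted p = 0.000461). Pdp2, an opposing phosphatase, had 7.59, 7.79 and 7.75 in EpCAM- cells and 8.52, 8.67 and 8.49 in EpCAM+ cells, a change of -0.85 ± 0.14 (adjusted p = 0.0024). Both genes had groups that did not overlap, in opposite directions. Pdp1, a further phosphatase in this list, had 8.95, 9.21 and 9.29 in EpCAM- cells and 8.95, 8.80 and 8.64 in EpCAM+ cells. Its libraries overlapped, and its difference of 0.35 did not pass (95% interval 0.0073 to 0.69, adjusted p = 0.0909). Mpc1, a pyruvate carrier subunit, had 7.74, 7.65 and 7.13 in EpCAM- cells and 8.12, 8.02 and 8.46 in EpCAM+ cells, a change of -0.69 ± 0.22 (adjusted p = 0.0377) that passed in 9 of 17 alternative settings. The count of 5 falls was 1 without EpCAM- replicate 3 and 2 without any single EpCAM+ replicate, while the count of 1 rise was 2 without EpCAM- replicate 1. Of 9 pentose phosphate genes none rose by limma (1 at an unadjusted p under 0.05) and 3 fell, with a median of -0.31. Rpia, a ribose phosphate isomerase, changed by -2.02 ± 0.21 (adjusted p = 0.000341), at 8.28, 8.56 and 8.27 in EpCAM- cells and 10.15, 10.85 and 10.17 in EpCAM+ cells.

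The other pentose phosphate genes that fell were Taldo1 and Tkt. Taldo1, transaldolase, had 10.21, 9.29 and 9.33 in EpCAM- cells and 11.41, 11.17 and 11.52 in EpCAM+ cells, a change of -1.76 ± 0.25 (limma, adjusted p = 0.00153). Tkt, transketolase, had 13.02, 12.39 and 12.60 in EpCAM- cells and 13.29, 13.42 and 13.38 in EpCAM+ cells, a change of -0.69 ± 0.17 (adjusted p = 0.0154), which missed the threshold without EpCAM+ replicate 2 or 3 (0.0520 and 0.0543). Of 4 tested gluconeogenic genes 2 fell and none rose by limma, nor did any rise at an unadjusted p under 0.05 (0 genes), with a median of -1.09. Fbp2, a fructose bisphosphatase, had 2.87, 2.42 and 2.92 in EpCAM- cells and 6.65, 5.79 and 6.73 in EpCAM+ cells, a change of -3.66 ± 0.31 (adjusted p = 0.000133). Pcx, pyruvate carboxylase, had 7.73, 7.70 and 8.07 in EpCAM- cells and 9.68, 9.42 and 9.97 in EpCAM+ cells, a change of -1.86 ± 0.18 (adjusted p = 0.00026). Of 18 citric acid cycle genes 2 rose and 5 fell, with a median of -0.063. Idh2 changed by -0.91 ± 0.19 (adjusted p = 0.00882), Suclg2 by -0.87 ± 0.20 (adjusted p = 0.0112) and Idh3a by 0.57 ± 0.11 (adjusted p = 0.00645). Without EpCAM- replicate 1, 8 of these genes fell, and without any single EpCAM+ replicate 1 rose.

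**Figure D5:**
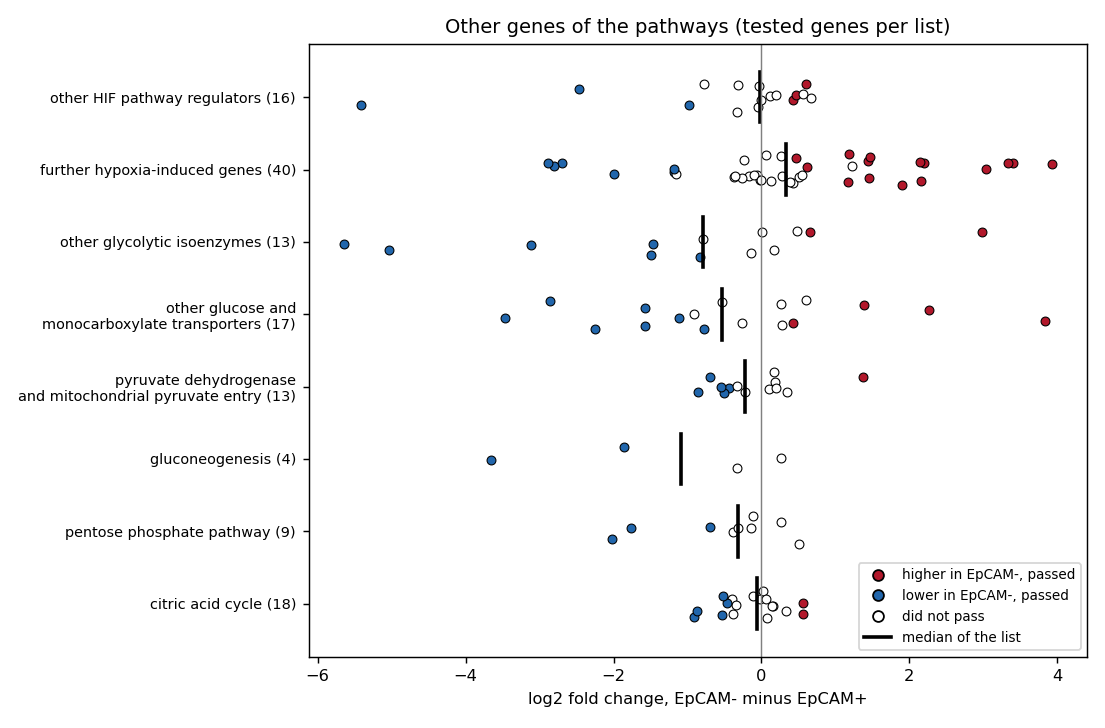
Change of the tested genes in the 8 further lists (x axis, log2 difference EpCAM- minus EpCAM+; points are genes, filled where the test was passed; lines are list medians). The further hypoxia-induced genes have the highest median, 0.34, and the gluconeogenic genes the lowest, -1.09.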

How the data were processed

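RNA of 6 libraries, 3 EpCAM- and 3 EpCAM+, was extracted from sorted cells with a bead kit and prepared with an mRNA library kit, per the labels' protocols. The authors deposited 1 table of normalised log2 values, per the file's values, which run in real numbers and are of like size in all columns. STAR 2.5.2, RSEM and DESeq2 1.24.0 are named with GRCm38, per the submitters' processing notes, without role or order. The transform behind the log2 values, the annotation, filters and strand setting are not given in the sources used here. Sequencing depth is therefore unknown, and no counting interval is given.

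Of 25978 gene IDs, 25831 matched GENCODE M21 names (GRCm38), and 147 did not. The test covered the 15783 genes whose back-transformed values averaged 10 or more. The groups were compared in 1 fit with limma 3.58.1 (R 4.3.3; eBayes with its prior following the mean level; no covariates), two-sided, with Benjamini-Hochberg adjustment over all tested genes at 0.05. The fit was tested on simulated data. Levels per kilobase divide back-transformed values by the length of the GENCODE principal transcript. A near-identical gene aligns to a member's transcript at 95% identity or more over at least 400 bases. Promoters came from RefSeq (GRCm38.p6). All 38 genes are named. From each further list the 3 genes with the largest change past the threshold are named, except that some items are not reported here. The members and lists were chosen with earlier results of these data known. P-values measure the spread among the 3 biological replicates a group. Alternatives covered pseudocounts, filters, scaling, a replicate block, array weights, the variance trend and leaving libraries out. No protein sequence is printed.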

Additional observations from a re-analysis of the deposited data

How the results depend on the processing

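Under the 17 alternatives, 21 of the 38 genes kept their direction and their side of the threshold in every one. Leaving out 1 library at a time gave 4987 to 7300 changed genes (6850 with all libraries), 17 to 22 listed genes that rose (22) and 3 to 4 that fell (4), and medians of 0.61 to 0.80 for HIF regulators, 0.48 to 0.75 for glycolytic enzymes and -0.010 to 0.84 for the kinases. Leaving out both EpCAM+ replicate 1 and EpCAM- replicate 3 gave 4369 changed genes, 14 listed genes that rose and a kinase median of -0.18. The 14 held 6 of the enzymes and 1 of the other HIF targets, against 8 and 4 at an unadjusted p under 0.05 by limma. Pkm (adjusted p = 0.0982 by limma), Pdk1 (0.0630) and Ero1l (0.0596) then also missed the threshold. Of the citric acid cycle genes none then passed in either direction, against 2 rises and 4 falls at an unadjusted p under 0.05, and 2 of the other transporters rose and 2 of the pyruvate entry genes fell. With libraries left out, singly or as that pair, 6 genes changed sign: Vhl ranged over -0.088 to 0.079, Hk2 over -0.17 to 0.87, Gpi1 over -0.042 to 0.21, Aldoa over -0.093 to 0.16, Pfkfb3 over -0.18 to 0.98 and Adm over -0.99 to 0.31. Aldoa was also -0.077 under quantile normalisation, which moved the median of all tested genes by 0.13, and Adm was 0.065 with array weights. These 6 genes did not pass with all libraries, and the cause was not tested. Deviations of same-numbered libraries from their group means had correlations of 0.410, 0.044 and 0.165 across genes, which are not independent. With 3 libraries a group, these values cannot decide whether equal numbers share a tumour. With a replicate block 7090 genes changed, 23 listed genes rose and 4 fell: Slc2a1 (adjusted p = 0.0387) and Pfkl (0.0246) passed by limma, and Gapdh (0.0674) did not. EpCAM- replicate 2 correlated best with EpCAM+ replicate 3 (0.134). Array weights gave 5 rises among other HIF pathway regulators (as did the block, against 3), 2 among pyruvate entry genes, 8 falls in the citric acid cycle and a pass for Slc2a1 (0.0363). A filter at a mean of 50 left 2 rises and 4 falls among other transporters and 1 fall among gluconeogenic genes, and quantile normalisation gave 2 rises and 2 falls among pyruvate entry genes. With an unknown depth, low levels such as those of Slc2a3 in EpCAM+ cells carry an unknown counting error.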
